A study of Mus musculus with 4 samples.

Results

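The guanylate-binding proteins (GBPs) are large GTPases of the dynamin superfamily that cells make when they sense interferon. The 10 mouse members Gbp1 to Gbp10 were read here in polyadenylated RNA of the adult heart, as the rows of the count files that carry those symbols, 10 of 23420 gene symbols listed. Gbp1 is named Gbp2b in the current annotation. It was chosen by its measured counts, which are present in some libraries and absent in others, so its values between libraries are a description and carry no test. The other 9 members came in with the family name.

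GBPs bind and hydrolyse GTP, assemble on the membranes of pathogens and of the vacuoles that hold them, and help to break these open and to set off inflammasomes. Their genes are switched on mainly by interferon-gamma, and several members, among them mouse Gbp1, Gbp2 and Gbp5, end in a motif to which a lipid anchor is attached. Most work on them has been done in macrophages and in infected cells, while the unchallenged heart is read here. Mouse Gbp1 has also long been known as a gene whose response to interferon differs among inbred strains.

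All 4 libraries belong to 1 group, and each is labelled as a wild-type male C57BL/6J mouse of 12 weeks, the common inbred laboratory strain. The tissue label names the whole heart, while the labels' protocols name the apex of the ventricles. No animal was treated and there is no control group, so the comparisons open are between genes within a library and between the 4 libraries. The labels do not state that the libraries come from separate animals, and p-values then measure only the spread between these samples, which may be technical within libraries 1 and 4 and within libraries 2 and 3. Between these pairs the sex-linked transcripts differed.

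Depth was between 10523709 and 15359296 reads assigned to genes per library. Cardiomyocyte genes of the ventricle summed to between 83403 and 94252 reads per 1000000 gene counts (CPM). The 4 atrial markers summed to between 135 and 154 CPM, of which Nppa, a hormone gene, made up 131 to 151 CPM, while the light chain gene Myl7 had between 0.0694 and 0.503 CPM. Libraries 2 and 3 went against their label of male. The X-inactivation transcript Xist, made by female cells, had 136 and 172 CPM in libraries 2 and 3, against 0.347 and 1.24 CPM in libraries 1 and 4. The Y-linked Eif2s3y had 0 counts in libraries 2 and 3 and 11.3 and 13.1 CPM in libraries 1 and 4.

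The members lie in 2 clusters. In the GENCODE M21 annotation (build GRCm38, also called mm10), Gbp5, Gbp7, Gbp3, Gbp1 and Gbp2 occupy 144 kilobases of chromosome 3 in that order (142493978 to 142638008, plus strand). Gbp8, Gbp9, Gbp4, Gbp10 and Gbp6 occupy 280 kilobases of chromosome 5 (105014150 to 105293698, minus strand). Gbp1 spans 142594847 to 142619179, and 1422 bases separate its end from the start of Gbp2. All 10 are annotated as protein-coding. A promoter element through which interferon acts is the interferon-stimulated response element (ISRE). The 5 members with a promoter in the RefSeq table (GRCm38.p6, 250 bases before to 50 bases after the start) were searched on both strands for its core, GAAA followed by any 2 bases and another GAAA. Each of the 5 held it, in 5 of 6 windows since Gbp3 has 2 annotated starts. Of all 32851 promoters of the same length, 3.44% held it. The 50-base stretches around the match are printed from the plus strand, with the match in capitals. They show the element at the gene that was absent from 2 libraries beside its 4 neighbours. In all 5 the core lay on the minus strand, so the capitals read TTTC, any 2 bases and another TTTC.
Gbp1, chr3:142594690-142594739: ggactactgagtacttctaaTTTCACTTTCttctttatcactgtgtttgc
Gbp2, chr3:142620584-142620633: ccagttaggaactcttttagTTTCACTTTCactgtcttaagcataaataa
Gbp3, chr3:142559979-142560028: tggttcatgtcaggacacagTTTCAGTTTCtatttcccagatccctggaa
Gbp5, chr3:142496749-142496798: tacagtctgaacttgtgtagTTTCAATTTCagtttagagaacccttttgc
Gbp7, chr3:142530263-142530312: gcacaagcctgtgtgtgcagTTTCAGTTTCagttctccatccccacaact
The letters in capitals were the same 10 bases in Gbp1 and Gbp2, and the same 10 bases in Gbp3 and Gbp7. Counted from the RefSeq start, the match began 137 bases before that of Gbp1, 59 before Gbp2, 45 before Gbp3, 165 before Gbp5 and 53 before Gbp7. The RefSeq starts of Gbp2 and Gbp5 lie downstream of the first GENCODE start, so that their matches fall inside the GENCODE span of the gene. Gbp3 held a further match 39 bases before the same start, which overlaps the first. A match describes letters of the reference sequence and not a site in use.

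How well short reads can tell the members apart differed between the clusters. The nearest pair, Gbp6 and Gbp10, shared 98.4% of their coding bases in a global alignment, whereas Gbp1 and Gbp2 shared 82.5% and the least alike pair, Gbp5 and Gbp8, 52.4%. Of the 50-base windows of its transcript with the longest coding sequence, 98.2% of Gbp1 occurred in no transcript of another gene at another place. The share was 97.9% for Gbp2, 95.2% for Gbp3, 99.1% for Gbp5 and 97.7% for Gbp7. On chromosome 5 it was 87.2% for Gbp4, 90.4% for Gbp9 and 78.8% for Gbp8. It was 28.0% for Gbp6 and 26.0% for Gbp10, whose levels are therefore uncertain, since alignments that were not unique were listed in a row of their own and not under a gene. That row held 8.33 ± 0.147% of the listed reads (SD, n = 4). The read length is not given in the sources used here.

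Gbp1 was read in libraries 1 and 4 and not in libraries 2 and 3. It had 74 counts in library 1 and 99 in library 4, and 0 counts in each of libraries 2 and 3. That is 5.13 CPM in library 1 (exact Poisson limits of 95% 4.03 to 6.45) and 6.45 CPM in library 4 (5.24 to 7.85). The limits of these 2 libraries overlap, and both lie far above what a count of 0 allows. At 3 counts per library that is 0.216 CPM in library 2 and 0.285 CPM in library 3. The exact Poisson limits of 95% reach higher, to 0.265 CPM in library 2 and 0.351 CPM in library 3, and would give smaller ratios than those below. At the level of library 1, library 2 would have held 71.5 counts and library 3 would have held 54.0. The CPM of library 1 was 23.8-fold the 3-count limit of library 2 and 18.0-fold that of library 3. That of library 4 was 29.9-fold and 22.6-fold these limits. The counting error of libraries 1 and 4 is not part of these ratios, which rest on the counts that chose Gbp1. The Poisson limits and the limit of 3 counts cover counting error only, because PCR copies of a molecule cannot be recognised without molecular identifiers. In RNA of whole tissue, fewer cells that make a transcript and less of it per cell cannot be told apart.

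The libraries without Gbp1 reads were libraries 2 and 3, those with Xist and with 0 or 1 reads of each Y-linked gene listed as a marker, although Gbp1 lies on chromosome 3. With 4 libraries, whatever sets these 2 apart from libraries 1 and 4 cannot be told apart from the absence of Gbp1 reads. Gbp2, the neighbour 1422 bases away, was read in all 4. Per kilobase of exon, the level of Gbp1 was 40.7% of that of Gbp2 in library 1 and 51.6% in library 4. Of the summed CPM of the family, Gbp1 made up 5.34% in library 1 and 6.52% in library 4.

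**Figure D1:**
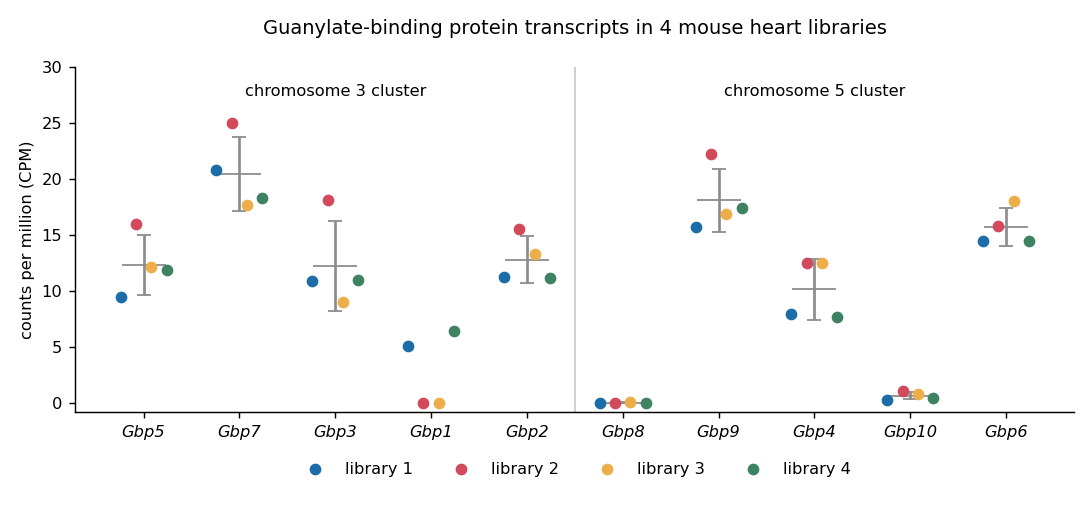
CPM (vertical axis) of each member in each of the 4 libraries (coloured points), ordered by position along the 2 clusters; grey bars are the mean and SD over 4 libraries, drawn for all members but Gbp1. Gbp1 sits at 0 in libraries 2 and 3 and at 5.13 and 6.45 CPM in libraries 1 and 4, while Gbp2, Gbp3, Gbp5, Gbp7 and Gbp9 are highest in library 2.

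A further 7 of 10 members were read at 1 CPM or more in all 4 libraries. Gbp7, which in mice takes part in the control of intracellular parasites, had 20.8, 25.0, 17.7 and 18.3 CPM in libraries 1 to 4. Gbp9 had 15.8, 22.2, 16.9 and 17.4 CPM. Both were highest in library 2. Gbp6, one of the pair that short reads separate poorly, had 14.4, 15.8, 18.1 and 14.5 CPM, with library 3 the highest. Gbp2, which coats the vacuoles of parasites in mouse cells, had 11.2, 15.5, 13.3 and 11.1 CPM. Libraries 1 and 4 were nearly level for both genes and both lay below libraries 2 and 3. Gbp5, which promotes inflammasome assembly, had 9.44, 15.9, 12.2 and 11.8 CPM. Gbp3 had 10.9, 18.1, 9.03 and 11.0 CPM, and the Poisson limits of library 2 (15.9 to 20.5 CPM) lay above those of the other libraries, whose highest upper limit was 12.8 CPM. Gbp4 had 7.98, 12.5, 12.5 and 7.68 CPM, so that libraries 2 and 3 were level and both stood above libraries 1 and 4, with no overlap of the Poisson limits between these pairs of libraries.

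The 2 remaining members were close to the limit of detection. Gbp10 had 5, 15, 9 and 8 counts in libraries 1 to 4, or between 0.347 and 1.08 CPM. Gbp8 had 1, 0, 1 and 1 counts, all below the 3 counts that a count of 0 allows. The related Gbp11, annotated as a polymorphic pseudogene and not a member, had 0, 0, 1 and 1 counts. At this depth neither Gbp8 nor Gbp11 was detectable above that limit.

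Levels can be compared between genes only per length. Per kilobase of the union of a gene's exons, Gbp2 had the highest mean level, 5.09 ± 0.823 CPM per kilobase (SD, n = 4). Gbp3 followed at 3.75 ± 1.23, Gbp7 at 3.64 ± 0.593, Gbp9 at 3.49 ± 0.548 and Gbp6 at 2.63 ± 0.286 CPM per kilobase. Gbp2 stood at percentile 58.6 of the 12259 tested genes with a length, above their median of 3.62 CPM per kilobase, and Gbp3 and Gbp7 stood near it, at percentiles 51.0 and 50.2. Without library 2 the levels were 4.73 for Gbp2, 3.37 for Gbp7, 3.23 for Gbp9 and 3.16 CPM per kilobase for Gbp3, so that Gbp3 came after Gbp7 and Gbp9, and both Gbp3 and Gbp7 lay below the median of 3.61. In libraries 1 and 4 alone they were 4.45 for Gbp2, 3.48 for Gbp7, 3.35 for Gbp3 and 3.21 for Gbp9, beside a median of 3.66 CPM per kilobase. Gbp5 stood at 1.86 ± 0.405 CPM per kilobase and Gbp4 at 1.36 ± 0.362. Gbp1 came to 1.82 CPM per kilobase in library 1 and 2.28 in library 4. With the union of exons as the length, this lay between the levels of Gbp5 and Gbp6 in both libraries. Gbp10 stood at 0.181 ± 0.0848 and Gbp8 at 0.0167 ± 0.0118 CPM per kilobase.

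Not all neighbours in that order were set apart. With Gbp1 left out, because its values chose it, the ranges over libraries did not overlap for 4 of 8 neighbouring pairs, Gbp9 over Gbp6, Gbp6 over Gbp5, Gbp4 over Gbp10, and Gbp10 over Gbp8. Gbp2 exceeded Gbp3 in 4 of 4 libraries, by 0.48 ± 0.33 on the log2 scale (SD, n = 4, with 0.5 counts added), although their ranges overlapped. Gbp3, Gbp7 and Gbp9 differed by less than their spread, with log2 differences of 0.01 ± 0.23 for Gbp3 over Gbp7 and 0.06 ± 0.16 for Gbp7 over Gbp9. An exact permutation test that flips the signs of the differences (two-sided) can go no lower than p = 0.13 with 4 libraries, or 0.167 after Benjamini-Hochberg adjustment over these 8 pairs, so no pair could pass 0.05. With the longest transcript as the length, Gbp6 moved to 3.70 ± 0.402, Gbp5 to 3.29 ± 0.716 and Gbp4 to 2.24 ± 0.597 CPM per kilobase. Gbp1, whose length stayed the same, then lay below Gbp5 in libraries 1 and 4. Gbp2 then exceeded Gbp3 in 3 of 4 libraries, by 0.19 ± 0.33 on the log2 scale (SD, n = 4). With this length 2 of the 8 pairs, Gbp4 over Gbp10 and Gbp10 over Gbp8, had ranges that did not overlap.

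**Figure D2:**
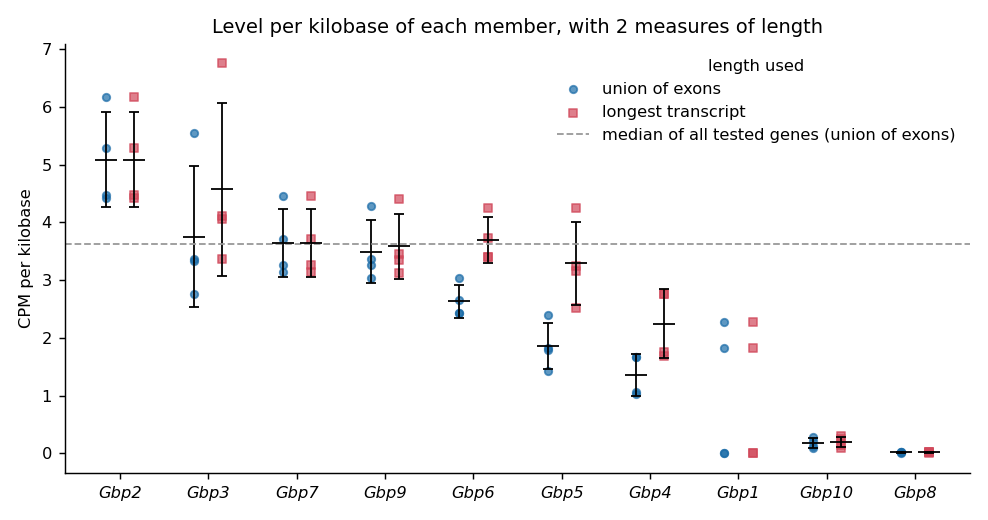
Level of each member in CPM per kilobase (vertical axis), per library (points), with the length taken as the union of exons (blue circles) or as the longest transcript (red squares); black bars are the mean and SD over 4 libraries, drawn for all members but Gbp1. Gbp2 has the highest mean with both lengths, though with the longest transcript not the highest level in every library. Gbp4, Gbp5 and Gbp6 move most between the lengths.

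Whether a gene varied more over the 4 libraries than genes of similar abundance do was tested for all genes with a mean of 1 CPM or more (edgeR's quasi-likelihood fit with an intercept only). The variance ratio is the gene's quasi-dispersion over the fitted trend. Of the members, 8 of 10 were tested. Gbp1 passed the filter only through libraries 1 and 4, and its ratio, which rests on the counts that chose it, is shown in the plot of spread against abundance without a test. Of the 7 others, 0 were called at an adjusted p under 0.05, where 0.445% of 12358 tested genes were called. At an unadjusted p under 0.05 there were 3 of the 7, where 6.00% of all tested genes were. Limma-trend called 0 of the 7 and 0.405% of all genes, and DESeq2 had 0 of the 7 and 1.04% of all genes as dispersion outliers. With a prior that is not robust, with no filter on low counts, and in libraries 1 and 4 alone, edgeR again called 0 of the 7, where it called 0.0809%, 1.48% and 0.0486% of all genes.

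The variance ratios of the 7 were all above 1, as were those of 43.5% of all tested genes. Gbp3 had the largest, 8.19 (edgeR, unadjusted p = 0.00953, adjusted p = 0.433), then Gbp4 with 5.62 (unadjusted p = 0.0255, adjusted p = 0.644) and Gbp5 with 4.24 (unadjusted p = 0.0493, adjusted p = 0.831). Those of Gbp7, Gbp9, Gbp2 and Gbp6 were 3.27, 2.81, 2.52 and 1.41. Their median on the log2 scale was 1.71, against -0.23 over all tested genes. Lying in 2 gene clusters, the members are not independent observations. The ratios depended on single libraries. Without library 2 the ratio was 0.783 for Gbp3, 0.375 for Gbp9, 1.06 for Gbp7, 1.24 for Gbp2 and 1.88 for Gbp5, all lower than with it, and 2.52 for Gbp6 and 6.45 for Gbp4, both higher. Without library 3 it was 0.364 for Gbp6, 3.78 for Gbp2, 4.56 for Gbp9 and 6.74 for Gbp5. Without library 1 it was 2.30 for Gbp5. In libraries 1 and 4 alone Gbp5 had the largest ratio, 2.93, and Gbp3 the smallest, 2.09e-05. The median log2 ratio of the 7 was 0.32 without library 2, against -0.41 over all tested genes, and -3.23 in libraries 1 and 4 alone, against -1.09.

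**Figure D3:**
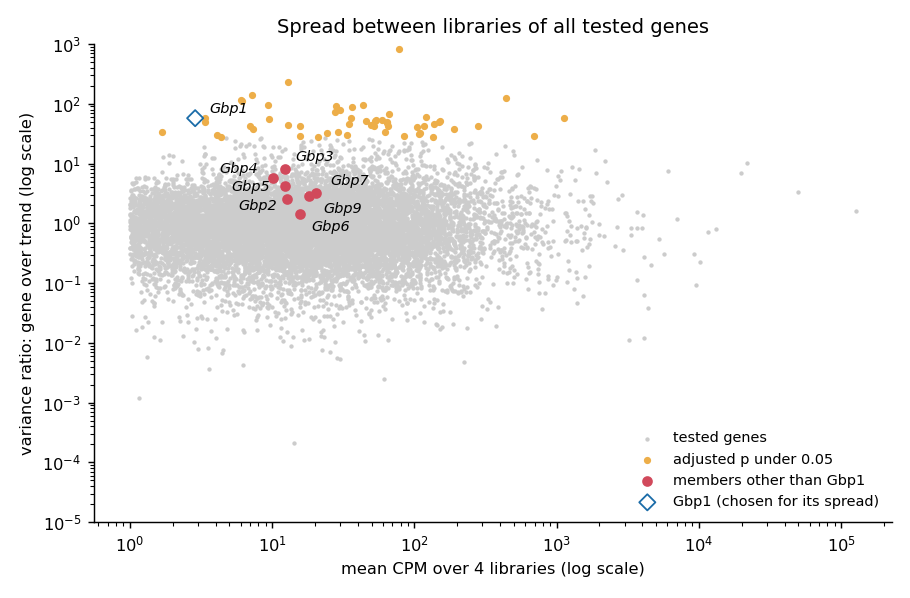
Variance ratio (gene over trend, vertical log axis) against mean CPM (horizontal log axis) for 12358 tested genes (grey), those other than Gbp1 with an adjusted p under 0.05 (yellow), the 7 tested members other than Gbp1 (red) and Gbp1 (blue diamond, chosen for its spread). The 7 members lie between 1.41 and 8.19, below all genes drawn in yellow.

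Most of the 7 tested members other than Gbp1 had library 2 on top. Library 2 was the highest for 5 of the 7, Gbp2, Gbp3, Gbp5, Gbp7 and Gbp9, where it was the highest for 28.5% of all tested genes. Libraries 2 and 3 both stood above libraries 1 and 4 for 4 of the 7, Gbp2, Gbp4, Gbp5 and Gbp6, where this held for 15.6% of all tested genes. The opposite order, that of Gbp1, held for 0 of the 7 and for 23.7% of all tested genes. With TMM-scaled library sizes (trimmed mean of M-values) these counts were again 5 and 4, and with Rn45s, the precursor of ribosomal RNA, left out of the totals they were 6 and 4, beside 28.7% and 18.3%, and 33.4% and 16.1%, of all tested genes. The 4 members of the chromosome 3 cluster other than Gbp1 summed to 52.4, 74.6, 52.2 and 52.3 CPM in libraries 1 to 4. This sum was level in 3 libraries, with library 2 1.43-fold above the lowest, but its single members were not level. Library 3 lay above libraries 1 and 4 for Gbp2 and Gbp5 and below both for Gbp3 and Gbp7. The chromosome 5 cluster summed to 38.6, 51.6, 48.5 and 40.2 CPM, with libraries 2 and 3 both above libraries 1 and 4. The whole family summed to 96.1, 126, 101 and 98.9 CPM.

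No gene listed around the clusters was at 0 in both libraries 2 and 3. Within 500 kilobases of the chromosome 3 cluster 4 other genes were listed, and within 500 kilobases of the chromosome 5 cluster 7, of which 4 and 4 were tested. None of the 8 was called (edgeR, adjusted p 0.991 or more), beside 0.445% of all tested genes. None had an unadjusted p under 0.05, beside 6.00% of all tested genes. With 8 genes, a count of 0 cannot be told apart from these shares. Ccbl2 (now Kyat3, an aminotransferase), the nearest to Gbp1 with a start 106 kilobases away, had 14.6, 13.7, 15.0 and 18.9 CPM in libraries 1 to 4. Gtf2b, a general transcription factor, had 7.63, 7.40, 8.27 and 10.5 CPM, and the kinase gene Pkn2 26.0, 22.7, 22.1 and 28.7 CPM. Each of the 3 was present in all 4 libraries and highest in library 4. On the other side of the cluster Pdlim5, a Z disc protein gene named after its values were seen, had between 283 and 313 CPM.

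**Figure D4:**
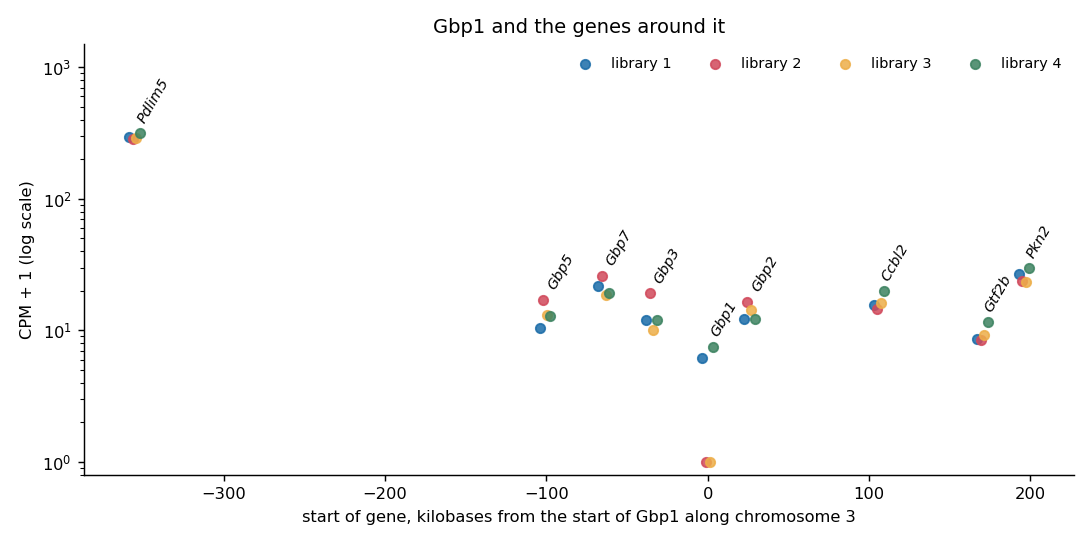
CPM + 1 (vertical log axis) of the 5 chromosome 3 members and of 4 other genes, by distance in kilobases from the start of Gbp1 (horizontal axis). Each gene is placed at its lowest coordinate, which is the end and not the start of the minus-strand genes Pdlim5 and Pkn2. The points are the 4 libraries, shifted slightly sideways. Gbp1 alone is at 0 CPM, in libraries 2 and 3, and the genes on both sides are read in all 4.

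Among all other tested genes, Gm5779 had the profile nearest to that of Gbp1. Likeness was measured as the root mean square distance over 4 libraries between profiles of log2(CPM + 1), each centred on its own mean, with a median of 1.37 over all tested genes. Gm5779, a transcribed processed pseudogene on chromosome 10 whose counts are uncertain because it is a copy of another gene, had 87, 4, 2 and 109 counts in libraries 1 to 4 and a distance of 0.0886. Uty, a demethylase gene on Y, followed at 0.311 with 43, 0, 0 and 59 counts. The next were the immediate early gene Fos (0.347), the complement gene C7 (0.411) and the chemokine gene Ccl11 (0.451). These 3 were read in all 4 libraries, with libraries 2 and 3 the lowest for each. The distances of the other tested members lay above the median of 1.37. They ran from 1.45 for Gbp7, with 83.4% of genes nearer, to 1.69 for Gbp4, with 99.4% nearer. All these distances rest on the counts that chose Gbp1, so they are a description and carry no test.

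Most tested genes of a fixed list of other interferon-related GTPases were also highest in library 2. The fixed list of 12, which holds the immunity-related GTPases and the Mx proteins, summed to 90.3, 111, 89.8 and 92.0 CPM in libraries 1 to 4, again level in 3 libraries and highest in library 2. Library 2 was the highest for 7 of its 9 tested members, beside 28.5% of all tested genes. Irgm1, a regulator of the other immunity-related GTPases, had 9.64, 14.9, 11.8 and 10.9 CPM. Irgm2 had 12.0, 13.6, 11.2 and 11.3 CPM, and Irgq, the most read gene of the list, 41.5, 45.1, 36.9 and 39.7 CPM. The mean of Irgq was 40.8 CPM, where that of the whole sum was 95.8 CPM. Whether interferon induces each gene of the list was not tested. None of the 9 was called by edgeR and 1 had an unadjusted p under 0.05, beside 0.445% and 6.00% of all tested genes, and the median log2 variance ratio was 0.07, or -0.45 without library 2. That gene was Igtp, chosen after its values were seen, with 8.67, 15.8, 9.98 and 9.70 CPM (edgeR, unadjusted p = 0.0199, adjusted p = 0.589).

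In the type I interferon response list, library 2 was the highest for 25 of 32 tested genes, against 28.5% of all tested genes. None was called by edgeR, against 0.445% of all, and 7 had an unadjusted p under 0.05, against 6.00% of all. The median log2 variance ratio was 0.72, and -0.90 without library 2. Their sum was 436, 501, 420 and 452 CPM. Its 3 most read genes were the ubiquitin ligase Trim25 at 55.2 ± 4.04 CPM, the receptor chain Ifnar1 at 42.4 ± 3.66 CPM and the editing enzyme Adar at 38.3 ± 2.21 CPM (SD, n = 4). The ubiquitin-like Isg15, chosen after its values were seen, had 3.40, 6.97, 3.61 and 3.19 CPM and the regulator Irf7, chosen likewise, 9.58, 15.6, 8.46 and 10.2 CPM. Both were highest in library 2, without passing the test (adjusted p = 0.659 for Isg15 and 0.622 for Irf7, edgeR).

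The gene of interferon-gamma, the main known inducer of the family, was not read, while those of its receptor and kinases were. What sets the level of the members in these hearts was not tested. Ifng, the gene of interferon-gamma, had 0 counts in all 4 libraries, which allows between 0.195 and 0.285 CPM depending on the library. The receptor chain Ifngr2 had 196 ± 7.30 CPM, Ifngr1 50.6 ± 8.64 CPM and the kinase Jak1 167 ± 5.57 CPM (SD, n = 4). Library 2 was the lowest for Ifngr1, at 39.7 CPM. Of 12 tested genes of interferon-gamma signalling, 0 were called by edgeR and 3 had an unadjusted p under 0.05, where 0.445% and 6.00% of all tested genes did. Library 2 was the highest for 5 of the 12, where it was for 28.5% of all. The 3, chosen after their values were seen, were Ifngr1 and the transcription factor genes Irf1 and Irf8. Irf1, a direct regulator of GBPs, had 28.0, 36.8, 22.7 and 27.1 CPM (edgeR, adjusted p = 0.615), and Irf8 had 7.56, 12.7, 8.27 and 5.14 CPM (edgeR, adjusted p = 0.392). The median log2 variance ratio was 0.55, and -0.76 without library 2.

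No gene of antigen presentation and no partner of the GBPs was called. The antigen presentation list summed to 1292, 1295, 1218 and 1305 CPM, with 0 of 16 tested genes called by edgeR, 2 at an unadjusted p under 0.05, a median log2 variance ratio of 0.10, or -0.32 without library 2, and library 2 the highest for 8. Over all tested genes these shares were 0.445% called, 6.00% at an unadjusted p under 0.05 and 28.5% highest in library 2. The 2 genes, chosen after their values were seen, were H2-K1 and Tap1, the peptide transporter, and both were highest in library 2. Cd74, the invariant chain, had 272 ± 14.4 CPM, B2m, the light chain of class I molecules, 181 ± 17.3 CPM, and the class I heavy chain H2-K1 151 ± 19.7 CPM (SD, n = 4). Enzymes that attach the lipid anchor, factors that direct GBPs to membranes and inflammasome genes formed the last list. It summed to 1188, 1153, 1112 and 1207 CPM, and library 2 was the highest for 5 of 18 tested genes. Of these 0 were called by edgeR and 0 had an unadjusted p under 0.05, with the same shares over all genes beside them, and the median log2 variance ratio was -0.44, or -0.13 without library 2. Map1lc3a had 424 ± 14.6 CPM, Map1lc3b 218 ± 10.7 CPM and Gabarap 137 ± 9.49 CPM (SD, n = 4), all membrane tags of autophagy. In limma-trend and DESeq2, as in edgeR, 0 genes of the 5 lists were called. Of all tested genes limma-trend called 0.405% and DESeq2 1.04%.

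**Figure D5:**
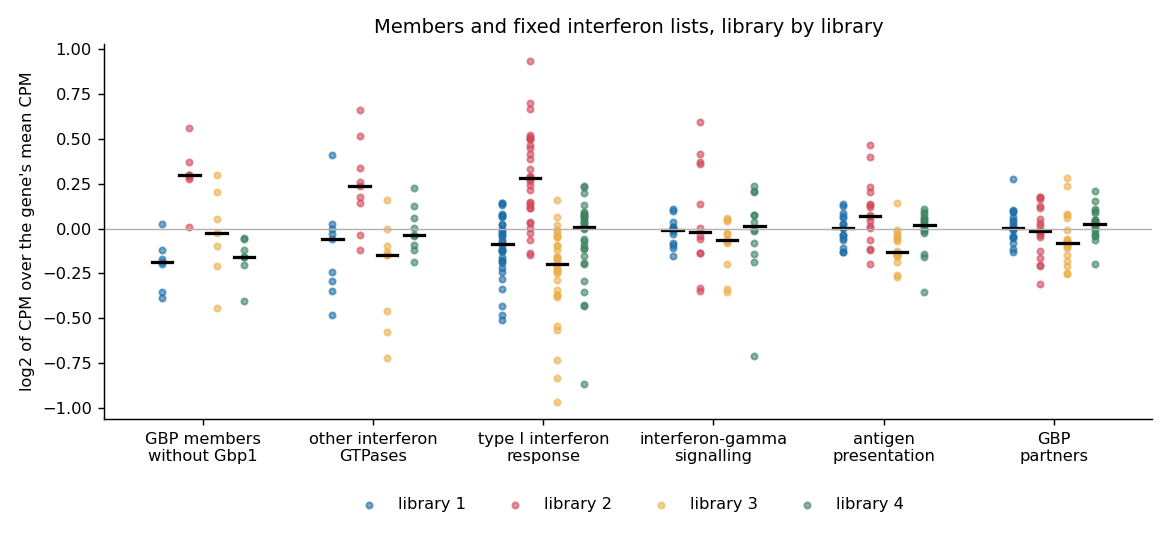
Log2 of CPM over the gene's own mean CPM (vertical axis) for the tested genes of the family without Gbp1 and of 5 fixed lists, by library (colours); points are genes and black bars are medians. The medians of library 2 are 0.30 for the members, 0.24 for the other interferon GTPases and 0.28 for the type I interferon response, and lie between -0.02 and 0.07 for the other 3 lists.

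Of the immune cell markers, those of T and NK cells and of neutrophils had their highest sums in library 2, both on few counts. T and NK cell markers were few, with 20, 60, 28 and 38 counts over 11 genes in libraries 1 to 4, or 1.39, 4.31, 2.66 and 2.47 CPM, and none of the 11 reached a mean of 1 CPM. Neutrophil markers summed to 2.22, 4.02, 3.52 and 3.19 CPM over 3 genes. In library 2 a single gene, Csf3r, held 47 of their 56 counts, and S100a9 was highest in library 3. B cell markers summed to between 2.09 and 3.12 CPM over 4 genes, with library 1 the highest. Macrophage markers summed to 267, 235, 249 and 280 CPM over 8 genes, with library 2 the lowest, and did not move together. The scavenger receptor gene Cd163 had 29.0, 14.8, 28.6 and 32.0 CPM, lowest in library 2, and the antibody receptor gene Fcgr1 had 1.39, 3.23, 0.475 and 1.63 CPM, highest in library 2. Endothelial markers, of a cell type that also makes GBPs under interferon, summed to between 1081 and 1098 CPM over 7 genes. No listed marker of these 5 cell types was at 0 in all 4 libraries. The part of these cells in the order of the members was not tested.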

How the data were processed

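Poly(A) RNA of the mouse heart was selected with oligo(dT) and sequenced in 4 libraries as single-end reads without strand, per the labels' protocols, so that reads of a gene and of its antisense partner cannot be told apart. The authors deposited raw counts of reads per gene symbol, with no normalization. The submitters' processing notes list the build mm10 and the tools HTSeq, TopHat, TopHat2 (2.0.10), edgeR, DESeq and Bowtie2, without the steps. Which annotation was counted, and in which mode, is not given in the sources used here. The 5 rows of each library that name no gene were left out and held 9.16 ± 0.145% of the listed reads (SD, n = 4).

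CPM was computed over all gene counts, with no further scaling, and levels are the mean ± SD over 4 libraries. Exon lengths came from GENCODE M21, where 22982 of 23420 symbols were matched, 1245 of them as synonyms. For the spread between libraries, edgeR 4.0.16 in R 4.3.3 was fitted with an intercept only on TMM-scaled counts of 12358 genes with a mean of 1 CPM or more, with a robust prior, and p-values were adjusted over all of them by the Benjamini-Hochberg method. Limma-trend 3.58.1 and DESeq2 1.42.0 were alternatives, beside other scalings, filters, lengths and leaving out each library. The fit was tested on simulated data. Exact Poisson limits of 95% and the limit of 3 counts cover counting error only.

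Named genes were all members, Gbp11, the 3 most read genes of each fixed list, the 3 chromosomal neighbours and the 5 profiles nearest to Gbp1, and the sex-linked genes. Other genes, among them Rn45s, Ifng and single marker genes, were chosen after their values were seen. A second promoter motif that was searched is not reported here. The members and lists were chosen with earlier results of these data known.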

Additional observations from a re-analysis of the deposited data

Results flagged for a closer look

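Of 27 quantities checked over the 4 libraries, 5 had a library far from the other 3, measured as the gap to the nearest library over the whole range; chance alone gives such a gap in about 1 in 20 groups. The chromosome 3 members other than Gbp1 summed to 74.6 CPM in library 2, against 52.2 to 52.4 CPM in the other libraries. The interferon GTPases outside the family summed to 111 CPM in library 2, against 89.8 to 92.0 CPM. The antigen presentation list summed to 1218 CPM in library 3, against 1292 to 1305 CPM. Ventricular cardiomyocyte markers summed to 94252 CPM in library 3, against 83403 to 84032 CPM. Most of this gap lay in Myh6, with 56972.7 CPM in library 3, against 46666.5 to 48453.3 CPM. Of the 6 markers 4 were highest in library 3 and 2 in library 1. Endothelial markers summed to 1081 CPM in library 1, against 1096 to 1098 CPM.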

How the results depend on the processing

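No paired analysis was possible because the 4 libraries form a single group. The count of genes called for spread, 55 in edgeR, was 258 with no filter on low counts, 129 in DESeq2, 10 with a prior that is not robust, 6 in libraries 1 and 4 alone, and between 39 and 69 when each library was left out; the cause was not tested. None of the 7 tested members was called under any of these alternatives, and the lowest adjusted p was 0.0612, for Gbp3 with no filter. With no filter 1 of the 97 genes fixed in the lists was called, Irf8 (edgeR, adjusted p = 0.0422), where 1.48% of all 17447 genes were. Under the other alternatives 0 genes of the lists were called. The member sum of 105 CPM was 121 CPM with Rn45s left out of the totals, since the totals are then smaller, and between 98.5 and 109 CPM with a library left out. Gbp6 was 18.0 CPM without Rn45s in the totals. With Gbp1 kept in the order, neighbouring pairs with ranges that did not overlap numbered 3 of 9, 1 with the longest transcript as the length, and 3 to 4 with a library left out. The order without Gbp1, the levels per kilobase and list medians without libraries 2 or 3, the fit to libraries 1 and 4 alone, and the lists and chromosomal neighbours under every alternative, were added after seeing the data. Depth limits Gbp8 and Gbp10, and shared sequence limits Gbp6 and Gbp10.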
